A study of Homo sapiens with 9 samples.

Results

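The mitosis and spindle genes are 49 human genes that act between entry into mitosis and the separation of the daughter cells. They were taken by their symbols from a given list of names. Each of the 49 matched 1 gene identifier among the 60683 in the deposited counts, and all 49 had enough counts to be tested in each comparison. RNA was sequenced from HEK293T, an established line of human embryonic kidney cells that carries the SV40 large T antigen, in 3 groups of 3 libraries. The parental group was HEK293T without integrands. Clone 15 and clone 37 were HEK293T cells stably transfected through piggyBac, a transposon, with the construct ATG-(CAG)60-Myc-NLuc together with a second one, ATG-(CAG)0-Myc-FLuc, and then sorted as single cells. Clone 37 was chosen for high and clone 15 for low levels of both integrands. All 3 groups were grown in DMEM with fetal bovine serum, penicillin and streptomycin, and the labels name no other treatment. Each clone is 1 single-cell clone, so the integrands cannot be told apart from the history of that clone, and the parental group holds no single-cell clone of its own. Clone 15 was read as paired ends of 100 bp and the other groups of 75 bp, so in both comparisons with clone 15 the read length and the clone cannot be told apart. The labels do not say that the 3 libraries of a group came from separate cultures, so the p-values measure only the spread between these libraries.

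Cells make most of these transcripts late in the cycle. As cells move from S phase to mitosis, the MuvB complex joins the transcription factor B-MYB (gene MYBL2) and then FOXM1, and together they activate the promoters of mitotic genes. In resting cells MuvB instead joins E2F4 and an RB-like protein such as RBL2, as the DREAM complex, and holds the same promoters silent. MuvB reaches DNA at a short element called CHR (cell cycle genes homology region), usually close to the start of the transcript, while CCAAT boxes nearby are bound by NF-Y. The protein products then work in order: CDK1 with cyclin B starts mitosis, kinases and kinesins build the spindle, the checkpoint holds anaphase back until chromosomes are attached, and the anaphase-promoting complex with CDC20 releases the sister chromatids. HEK293T cells divide fast, and large T antigen binds the RB family of proteins. In bulk RNA, fewer cells in mitosis and less of a transcript per mitotic cell cannot be told apart.

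CHR and CCAAT letters stand upstream of members that rose and of members that fell. The 120 bases next upstream of the first annotated transcript start are printed for 3 members higher in both clones than in parental (CDC20, ESPL1 and MKI67) and 3 members lower in both (KIF11, KIF4A and ECT2), because the same letters occur in both sets. These members were picked for the letters. Apart from CDC20, each lost calls under some of the processing settings described below. Sequences are RefSeq's on GRCh38.p14, written on the transcript's strand. Capitals mark matches to the CHR (TTTGAA or TTCGAA) and to the CCAAT box (CCAAT), on either strand, so that TTCAAA and ATTGG are matches read on the opposite strand.
CDC20 (chr1:43358835-43358954, + strand): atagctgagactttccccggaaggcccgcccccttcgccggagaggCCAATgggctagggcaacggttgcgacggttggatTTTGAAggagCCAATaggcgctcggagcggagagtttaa
ESPL1 (chr12:53268179-53268298, + strand): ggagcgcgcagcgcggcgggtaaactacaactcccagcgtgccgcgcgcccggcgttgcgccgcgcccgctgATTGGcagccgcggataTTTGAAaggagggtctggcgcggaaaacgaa
MKI67 (chr10:128126424-128126543, - strand): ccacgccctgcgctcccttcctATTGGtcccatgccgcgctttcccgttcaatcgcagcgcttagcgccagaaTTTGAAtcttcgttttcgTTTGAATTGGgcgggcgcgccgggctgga
KIF11 (chr10:92593010-92593129, + strand): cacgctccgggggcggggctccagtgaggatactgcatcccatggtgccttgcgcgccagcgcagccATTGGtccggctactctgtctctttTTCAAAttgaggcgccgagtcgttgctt
KIF4A (chrX:70289970-70290089, + strand): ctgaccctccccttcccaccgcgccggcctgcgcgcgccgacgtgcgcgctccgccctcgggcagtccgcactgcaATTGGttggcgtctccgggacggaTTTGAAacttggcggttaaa
ECT2 (chr3:172750562-172750681, + strand): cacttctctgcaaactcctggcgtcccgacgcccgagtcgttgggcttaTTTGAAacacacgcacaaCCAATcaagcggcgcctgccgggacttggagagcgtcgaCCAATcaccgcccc

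CDC20 has a CHR between a pair of CCAAT boxes, counted at bases 65, 100 and 55 before its RefSeq start. ESPL1, KIF4A and KIF11 each have a CHR 31, 34 and 28 bases before the start, with 1 CCAAT box upstream of it at 48, 58 and 53. MKI67 has a CHR at 47 and another at 29 bases, and the second shares its last base with a CCAAT box at 24, and a further CCAAT box lies at 98. ECT2 has a CHR at 115 and CCAAT boxes at 97 and 58 bases before its start, and another at 2, past the printed end. Each position is that of the match's first base on the transcript's strand. Windows from 250 bases before to 50 after the start were given for 42 of the 49 members. In 36 of the 42 the bases after the start stood in a GENCODE 29 transcript of the gene on the printed strand, and in 0 on the other strand. A CHR match lay in a window of 33 of the 42 members (78.6%), against 19.5% of the 27305 genes with a window of the same length. A CCAAT match lay in 35 (83.3%), against 39.7%, and both lay in 1 window of 28 members (66.7%), against 7.85% of all genes. A match is a string of letters and does not show binding.

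Gene counts summed to between 10334090 and 38093340 per library, with clone 15 the deepest group at 18654063 or more. The members held 0.782% to 0.877% of the gene counts of each library, and the parental range of 0.782% to 0.821% overlapped clone 15 at 0.786% to 0.877% and clone 37 at 0.819% to 0.833%. Levels are given as CPM, the share of a library's gene counts that a gene held, where the members' 0.782% is 7822 CPM. Of 8 genes known in HEK293T, all were present in each group, from 6.76 CPM for PAX2 upward, but the levels of some differed between groups. NEFM was at 475 to 633 CPM in parental, 2646 to 2810.2 in clone 15 and 135 to 139 in clone 37, and NEFL at 213 to 256, 704 to 737 and 59.8 to 61.4. LIN28B was highest in clone 37, at 223 to 236 CPM, against 127 to 146 in parental and 151 to 163 in clone 15. KRT18 was above parental in both clones. VIM (506 to 586 CPM in parental, 539 to 554 in clone 15 and 509 to 576 in clone 37) and PAX2 overlapped across the groups. Of 7 markers of other cell types, PTPRC and CD3E (blood), PECAM1 and CDH5 (endothelium) and ALB (hepatocyte) stood at 0 to 0.290 CPM in every library. COL1A1 was at 32.9 to 35.5 CPM in parental, 48.3 to 108 in clone 15 and 18.4 to 20.7 in clone 37. COL1A2 had 0 counts in every parental and clone 37 library and 5.59, 12.2 and 56.8 CPM in clone 15 replicates 1, 2 and 3. The 7 markers summed to 33.1 to 35.5 CPM in parental, 54.2 to 165 in clone 15 and 18.5 to 21.2 in clone 37, so they moved with the groups. Their part in the results was not tested.

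As many members rose as fell in clone 37. Against parental, 15 of the 49 were higher and 15 lower, and 19 were not called. Calls are those with adjusted p below 0.05 in edgeR's quasi-likelihood test with Benjamini-Hochberg adjustment over all genes tested. The members called were 61.2%, where 54% of all 16501 genes tested were called, 26.7% higher and 27.3% lower. The members' median log2 fold change was -0.0026 and that of all genes 0.024. In clone 15 against parental, 16 members were higher, 19 lower and 14 not called. That is 71.4%, where 51.4% of 17703 genes were called, 25.1% higher and 26.2% lower. The medians were 0.018 for the members and 0.015 for all genes. The median size of the members' changes was 0.20 on the log2 scale in clone 37 and 0.27 in clone 15, where all genes had 0.32 and 0.36. The genes were not matched by level, and the difference was not tested. Both comparisons use the same parental libraries and are therefore not independent of each other. Between the clones, 14 members were higher in clone 37, 17 were lower and 18 were not called, 63.3% called where 57.7% of 17712 genes were, 28.7% higher and 29% lower. The medians were 0.016 and -0.0015. By role the members fall into groups of 2 to 8 genes. The share of all genes called, 26.7% higher and 27.3% lower in clone 37, 25.1% and 26.2% in clone 15, and 28.7% and 29% between the clones, is the background for every count by role, and no role was tested as a group.

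The split between higher and lower calls among the members moved with the processing. The share of all genes called was not computed for the settings below, so the moves are not shown to be particular to the members. With each library's trends over GC content and transcript length taken out, 18 members were higher and 9 lower in clone 37, 15 and 9 in clone 15, and 6 and 15 between the clones. With protein-coding genes only, 23 were higher and 16 lower in clone 15, and with unstranded counts 10 were higher and 21 lower there, and 8 and 15 in clone 37. Tested relative to its 100 nearest tested genes along the chromosome, by their median change, a setting chosen after the data were seen, 6 members were higher and 12 lower in clone 37, 11 and 12 in clone 15, and 10 and 16 between the clones. Without clone 15 replicate 3, the library with the most COL1A2, 12 were higher and 15 lower than in parental. Without clone 15 replicate 2, 19 were higher and 11 lower. The calls that held in all 17 alternatives tried were 5 of 30 in clone 37 (CDC25B, CDC20 and KIF23 higher, NUF2 and UBE2C lower), 12 of 35 in clone 15 and 13 of 31 between the clones. How many calls of other genes held in all of them was not computed.

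Members not called also depended on the processing: 5 of 19 in clone 37, 2 of 14 in clone 15 and 11 of 18 between the clones were called in none of the 17 alternatives. In clone 37, 4 members were called without parental replicate 2, CDC25C (-0.18), MAD2L1 (0.16), CENPF (-0.096), BIRC5 (0.19), 2 without parental replicate 1, PLK4 (0.16), PRC1 (0.50), and CENPA without parental replicate 3 (-0.28). Against their chromosome neighbours CDK1 (-0.20), CDC25C (-0.35), INCENP (-0.34), KIF18A (-0.22) and FOXM1 (-0.14) were called lower in clone 37 and ASPM (0.32) higher. In clone 15 CCNA2 (0.22) and PLK1 (0.34) were called higher that way and BUB1B (-0.29) and NDC80 (-0.29) lower, and between the clones CCNB1 (-0.21) and MKI67 (-0.32). In clone 15, 3 were called without parental replicate 2, CCNA2 (0.21), PTTG1 (0.21), BIRC5 (0.22), and 3 without clone 15 replicate 2, CCNA2 (0.20), KIF23 (0.26), DLGAP5 (0.21). Between the clones CCNB1 (-0.15), TPX2 (-0.12), MKI67 (-0.34) were called without clone 15 replicate 2, and CENPF (0.21) without clone 15 replicate 3.

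**Figure D1:**
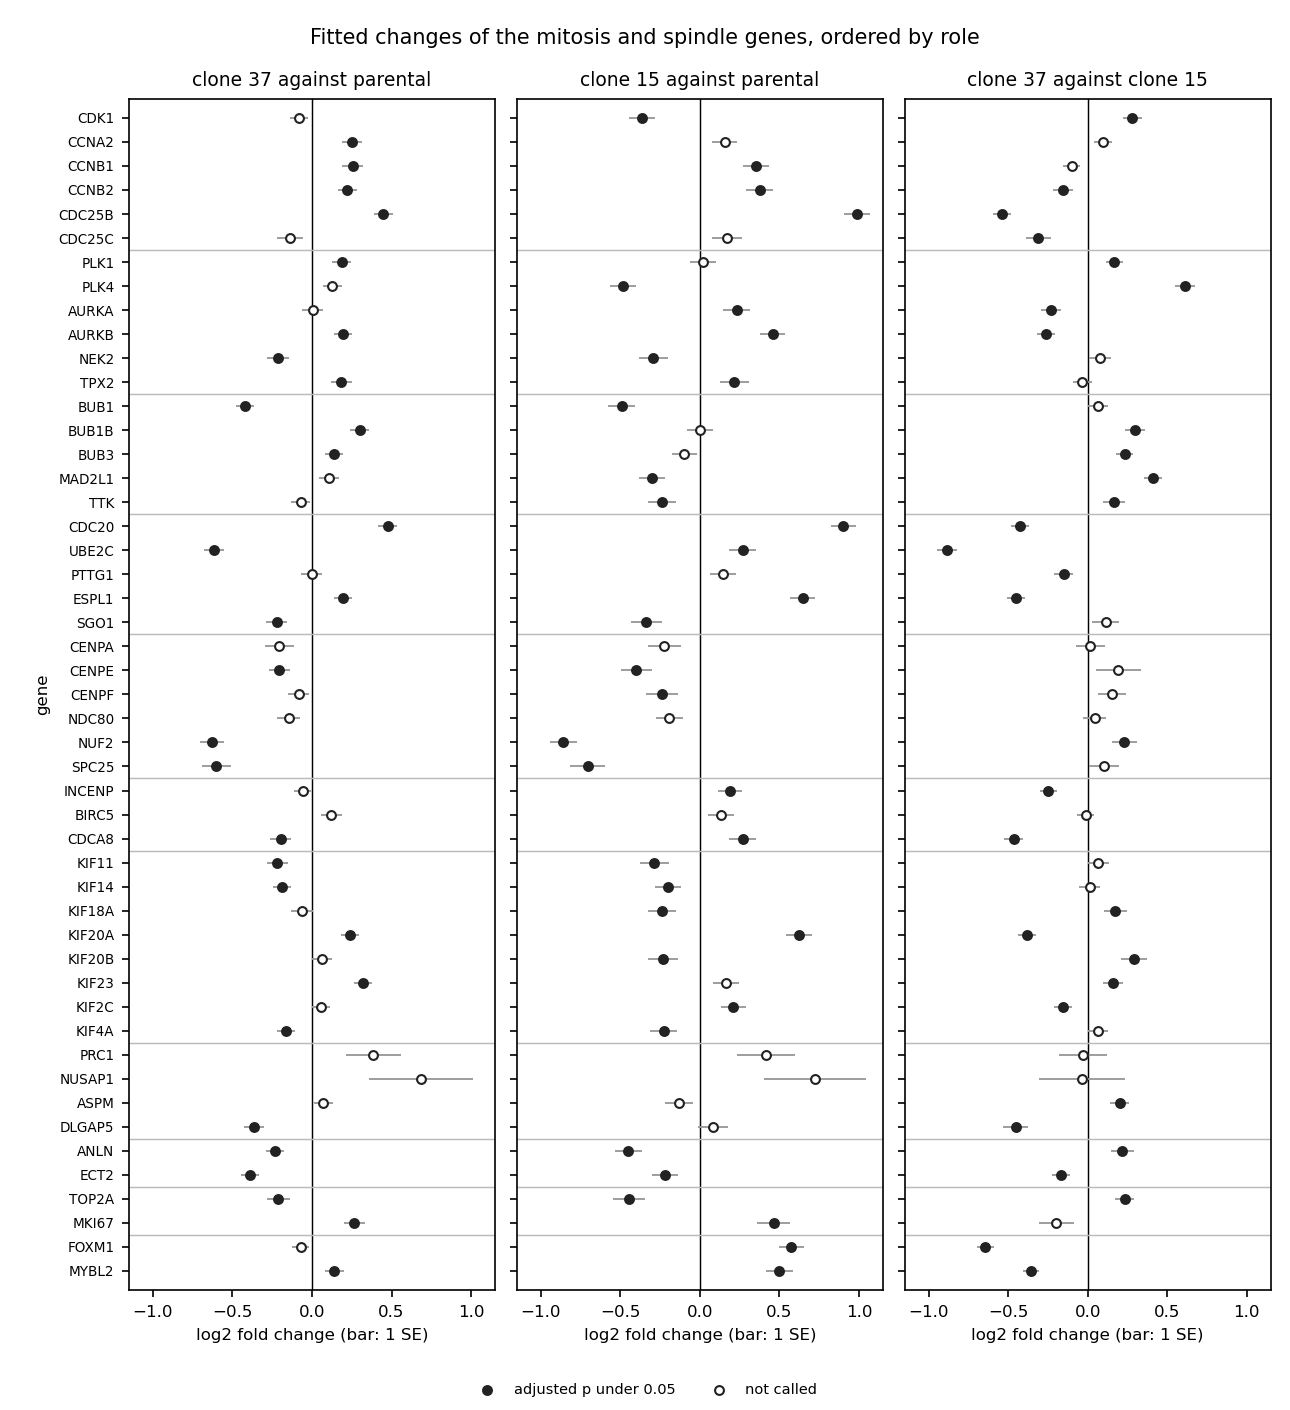
Fitted log2 fold change (horizontal axis, bars 1 SE, 3 libraries per group) of each of the 49 mitosis and spindle genes (vertical axis, grouped by role) in the 3 comparisons. Filled points were called at an adjusted p under 0.05, 30, 35 and 31 of them from left to right, and in each panel points lie on both sides of 0.

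Of the 6 genes for entry into mitosis, CCNB1, CCNB2 and CDC25B were called higher in both clones and CDK1 in neither. In clone 37 the calls were 4 higher with 0 lower, and in clone 15 3 higher with 1 lower. CDC25B, a phosphatase that removes inhibitory phosphates from CDK1 and so starts mitosis (chromosome 20, 3786772 to 3806121, plus strand, GRCh38), had 74.5, 79.0 and 84.9 CPM in the parental libraries, 154, 172 and 157 in clone 15 and 113, 108 and 110.0 in clone 37. The 3 groups did not overlap, with clone 15 highest and clone 37 between. Its log2 fold change was 0.99 (adjusted p = 2.63e-10, SE 0.0809) in clone 15, 1.98-fold, and 0.45 (adjusted p = 7.96e-06, SE 0.0611) in clone 37, 1.36-fold. Clone 37 was below clone 15, at -0.54 (adjusted p = 3.42e-09, SE 0.0563) on that scale. The calls of CDC25B held in all alternatives, although against its chromosome neighbours the increases were 0.60 and 0.20. The related phosphatase CDC25C had 30.6 to 36.4 CPM in parental, 35.8 to 39.4 in clone 15 and 29.6 to 30.7 in clone 37, was called in neither clone against parental (0.17, adjusted p = 0.127, SE 0.0943, in clone 15 and -0.14, adjusted p = 0.174, SE 0.0835, in clone 37), and was lower in clone 37 than in clone 15, at -0.31 (adjusted p = 0.00109, SE 0.0770). It was called lower in clone 37 against its neighbours (-0.35) and without parental replicate 2 (-0.18), and higher in clone 15 with protein-coding genes only (0.22).

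CCNB1, the cyclin whose complex with CDK1 drives mitosis, had 149.5, 172 and 167 CPM in the parental libraries, 217, 207 and 215 in clone 15 and 196, 192 and 206 in clone 37. Every library of either clone was above every parental library. The change was 0.35 (adjusted p = 9.11e-04, SE 0.0833) in clone 15 and 0.26 (adjusted p = 0.00274, SE 0.0642) in clone 37, and -0.10 (adjusted p = 0.115, SE 0.0544) between the clones, which was not called. CCNB2, the second B-type cyclin, rose too (0.38, adjusted p = 5.07e-04, SE 0.0833, in clone 15 and 0.22, adjusted p = 0.00583, SE 0.0624, in clone 37), from 57.5 to 60.0 CPM in parental, 74.1 to 81.1 in clone 15 and 68.0 to 70.6 in clone 37. CCNA2, the cyclin of S phase and early mitosis, was called in clone 37 at 0.25 (adjusted p = 0.00194, SE 0.0607) and not in clone 15 at 0.16 (adjusted p = 0.104, SE 0.0799). CDK1 itself had 147, 150.1 and 141 CPM in the parental libraries, 120.02, 109.6 and 118 in clone 15 and 143, 135 and 144 in clone 37. The clone 15 libraries lay below all others and the clone 37 libraries overlapped parental. It fell in clone 15 by 0.36 (adjusted p = 4.68e-04, SE 0.0800) on the log2 scale, and in clone 37 its value was -0.083 (adjusted p = 0.246, SE 0.0584). With the GC and length trends removed the clone 15 value was -0.18 and still called, while the difference between the clones, 0.28 (adjusted p = 1.81e-04, SE 0.0587), was no longer called, at 0.093. In clone 37, CCNB1 lost its call against its neighbours (0.065) and without clone 37 replicate 3 (0.20), CCNA2 against its neighbours (0.088), and CCNB2 in 4 of 17 alternatives, among them without parental replicate 3 (0.17) or clone 37 replicate 3 (0.19).

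The 5 mitotic kinases and TPX2 held calls in both directions, which were 3 higher with 1 lower of 6 in clone 37 and 3 higher with 2 lower in clone 15. PLK4, the kinase that sets centriole duplication (chromosome 4, 127880861 to 127899195, plus strand), had 86.0, 77.2 and 79.4 CPM in the parental libraries, 62.3, 56.0 and 58.4 in clone 15 and 89.5, 90.1 and 90.0 in clone 37. Clone 15 lay below and clone 37 above all parental libraries. The fall in clone 15 was called, at -0.48 (adjusted p = 2.42e-05, SE 0.0822), the higher level in clone 37 was not, at 0.13 (adjusted p = 0.0766, SE 0.0594), and the difference between the clones was 0.61 (adjusted p = 2.91e-09, SE 0.0633), the largest increase of a member in that comparison. The called values held in all alternatives, and were -0.26 in clone 15 with GC and length trends removed and 0.31 between the clones against its neighbours. PLK1, the kinase that matures centrosomes and activates CDC25 phosphatases, had 129, 146 and 143 CPM in the parental libraries, 141, 152 and 141 in clone 15 and 163, 159 and 163 in clone 37. Only the clone 37 libraries stood apart, above both other groups. Its values were 0.19 (adjusted p = 0.0157, SE 0.0610) in clone 37, 0.018 (adjusted p = 0.869, SE 0.0812) in clone 15 and 0.17 (adjusted p = 0.00912, SE 0.0537) between the clones, the last 0.34 with the GC and length trends removed. The clone 37 call was lost in 8 of 17 alternatives, including without parental replicate 1 or 3 and without clone 37 replicate 1 or 3 (range -0.087 to 0.24). Against its neighbours, whose median differed by 0.59 between the clones, PLK1 turned to -0.42 (adjusted p = 1.82e-07), and in clone 15 it was called higher against them, at 0.34 (adjusted p = 0.00138). The call between the clones was lost without clone 15 replicate 3 (0.14) or clone 37 replicate 3 (0.15).

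AURKA, the centrosomal Aurora kinase, had 94.3, 99.5 and 88.3 CPM in the parental libraries, 114, 105 and 119.6 in clone 15 and 92.8, 93.6 and 102 in clone 37, with clone 15 above the others and clone 37 overlapping parental. It was called higher in clone 15 at 0.23 (adjusted p = 0.0237, SE 0.0847), had 0.0048 (adjusted p = 0.958, SE 0.0661) in clone 37, and was lower in clone 37 than in clone 15, at -0.23 (adjusted p = 0.00290, SE 0.0634). The first of these was lost in 7 of 17 alternatives, among them without parental replicate 1 or 3 and without clone 15 replicate 3 (range 0.040 to 0.31), and the last held in all. AURKB, the Aurora kinase of centromeres and the midzone, had 96.8, 90.8 and 92.7 CPM in the parental libraries, 123, 139 and 132 in clone 15 and 110.5, 110.2 and 106 in clone 37. The 3 groups did not overlap. It was called higher in clone 15 (0.46, adjusted p = 2.38e-05, SE 0.0778) and in clone 37 (0.19, adjusted p = 0.00686, SE 0.0558). Both calls were lost with the GC and length trends removed (0.17 and 0.14) and against its neighbours (0.16 and -0.018), and that in clone 37 also without parental replicate 3 (0.15). AURKB was lower in clone 37 than in clone 15, at -0.26 (adjusted p = 2.65e-04, SE 0.0570). That difference was -0.031 and not called with the trends removed, and -0.14 and still called against its neighbours. NEK2, a kinase that splits centrosomes, was lower in both, with 58.3 to 64.2 CPM in parental, 48.1 to 55.0 in clone 15 and 52.4 to 53.6 in clone 37, -0.29 (adjusted p = 0.00875, SE 0.0901) in clone 15 and -0.21 (adjusted p = 0.0133, SE 0.0682) in clone 37. Neither NEK2 call held against its neighbours (-0.17 and -0.11), nor that in clone 37 without clone 37 replicate 1 (-0.20). TPX2, which activates AURKA on spindle microtubules, was called higher at 0.22 (adjusted p = 0.0452, SE 0.0897) in clone 15 and 0.19 (adjusted p = 0.0225, SE 0.0648) in clone 37, from 246 to 282 CPM in parental, 289.8 to 333 in clone 15 and 300.1 to 318 in clone 37. These calls were lost in 8 and 11 of 17 alternatives, in each case including without parental replicate 1 or 3, and in its own clone without replicate 1 or 3 (range -0.19 to 0.31 in clone 15 and -0.14 to 0.24 in clone 37).

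Among the 5 spindle checkpoint genes, whose products sense unattached kinetochores, 2 higher with 1 lower were called in clone 37 and 0 higher with 3 lower in clone 15. BUB1, the kinase that marks the inner centromere (chromosome 2, 110637698 to 110678114, minus strand), had 175, 188 and 182 CPM in the parental libraries, 141, 119.5 and 136 in clone 15 and 138, 136 and 140.1 in clone 37. All parental libraries were above all clone libraries, and the clones overlapped each other. It fell by 0.49 (adjusted p = 2.89e-05, SE 0.0844) on the log2 scale in clone 15 and fell by 0.42 (adjusted p = 6.73e-06, SE 0.0568) in clone 37. The median change of its chromosome neighbours was -0.46 and -0.30, and against them BUB1 was no longer called (-0.031 and -0.13). BUB1B, the BUBR1 protein of the mitotic checkpoint complex, had 100.93, 105 and 108 CPM in the parental libraries, 111, 97.1 and 113 in clone 15 and 131, 126 and 136 in clone 37, with clone 37 above all other libraries. It was called in clone 37 at 0.30 (adjusted p = 3.25e-04, SE 0.0585) and not in clone 15 at 0.0016 (adjusted p = 0.988, SE 0.0826), and the clones differed by 0.30 (adjusted p = 2.84e-04, SE 0.0643), which held in all alternatives. Against its neighbours it was not called in clone 37 (0.065) and was lower in clone 15 (-0.29, adjusted p = 0.00598). MAD2L1, the MAD2 protein that inhibits CDC20, had 138, 154 and 138 CPM in the parental libraries, 119.8, 117 and 119.9 in clone 15 and 158, 154 and 161 in clone 37, with clone 15 below both other groups. It fell in clone 15 by 0.30 (adjusted p = 0.00324, SE 0.0819) on the log2 scale, a call lost with the GC and length trends removed (-0.055), had 0.11 (adjusted p = 0.153, SE 0.0625) in clone 37, and differed by 0.41 (adjusted p = 2.82e-07, SE 0.0546) between the clones. That last call held in every alternative, at 0.27 with the trends removed and 0.22 against its neighbours. BUB3, the WD-repeat partner of BUB1, was called in clone 37 at 0.14 (adjusted p = 0.0496, SE 0.0568), from 219.9 to 228 CPM in parental, 210.4 to 219 in clone 15 and 239.9 to 259.5 in clone 37, and lost that call in 14 of 17 alternatives, including each library left out in turn except parental replicate 2 (range -0.00098 to 0.27). TTK, the MPS1 kinase that starts the checkpoint signal, was called lower in clone 15 at -0.24 (adjusted p = 0.0242, SE 0.0863), although the groups overlapped (112 to 123 CPM in parental, 92.7 to 112 in clone 15 and 112 to 118 in clone 37), and lost the call in 5 alternatives, including without parental replicate 2 and without clone 15 replicate 2 or 3 (range -0.30 to -0.077).

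The 5 genes that act at anaphase held the largest difference of any member between the clones, that of UBE2C. Calls were 2 higher with 2 lower in clone 37, 3 higher with 1 lower in clone 15, and 0 higher with 4 lower in clone 37 against clone 15. CDC20, the activator of the anaphase-promoting complex (chromosome 1, 43358955 to 43363203, plus strand), had 87.9, 95.5 and 96.2 CPM in the parental libraries, 171, 185 and 178 in clone 15 and 138, 127 and 132 in clone 37. As with CDC25B, the groups did not overlap and clone 37 lay between parental and clone 15. CDC20 rose by 0.90 (adjusted p = 1.06e-09, SE 0.0799) on the log2 scale in clone 15, 1.87-fold, and by 0.48 (adjusted p = 3.64e-06, SE 0.0605) in clone 37, 1.39-fold, and was lower in clone 37 than in clone 15, at -0.43 (adjusted p = 1.72e-07, SE 0.0552). All 3 calls held in every alternative, with 0.30 in clone 37 against its neighbours and -0.23 between the clones with the GC and length trends removed. UBE2C, the ubiquitin-conjugating enzyme of the same complex (chromosome 20, 45812576 to 45816957, plus strand), had 79.0, 83.4 and 77.0 CPM in the parental libraries, 92.8, 106 and 96.2 in clone 15 and 52.0, 53.9 and 53.2 in clone 37. Here clone 15 lay above and clone 37 below every parental library. UBE2C fell in clone 37 by 0.62 (adjusted p = 3.72e-07, SE 0.0644) on the log2 scale, to a ratio of 0.652 to parental, and was higher in clone 15 by 0.27 (adjusted p = 0.00844, SE 0.0825). The difference between the clones, -0.89 (adjusted p = 1.90e-12, SE 0.0635) and the fall in clone 37 held in all alternatives. The rise in clone 15 was lost in 5, with unstranded counts (0.21), the GC and length trends removed (0.018), its neighbours (0.038), and without parental replicate 1 (0.23) or 3 (0.21).

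ESPL1, separase, the protease that opens cohesin rings, had 154, 143 and 161 CPM in the parental libraries, 232, 257 and 244 in clone 15 and 181, 183 and 169.6 in clone 37. The groups did not overlap and clone 15 was highest. It rose by 0.65 (adjusted p = 1.95e-07, SE 0.0785) on the log2 scale in clone 15 and by 0.19 (adjusted p = 0.00866, SE 0.0576) in clone 37, and was lower in clone 37 than in clone 15, at -0.45 (adjusted p = 4.41e-08, SE 0.0541). The difference between the clones was -0.29 with the GC and length trends removed and -0.22 against its neighbours. The clone 37 call was lost with no filter on low counts (0.19), with unstranded counts (0.16) and without clone 37 replicate 1 (0.18). PTTG1, securin, which holds separase inactive, had 67.7 to 73.4 CPM in parental, 77.4 to 80.1 in clone 15 and 69.8 to 72.8 in clone 37 and was called in neither clone against parental (0.15, adjusted p = 0.138, SE 0.0816, and -0.0026, adjusted p = 0.977, SE 0.0637, in clones 15 and 37). PTTG1 was called lower in clone 37 than in clone 15, at -0.15 (adjusted p = 0.0345, SE 0.0601). That call was lost or turned in 7 of 17 alternatives, among them without clone 15 replicate 1 and without clone 37 replicate 1 or 2 (range -0.21 to 0.010). SGO1, shugoshin, which protects cohesin at centromeres, was lower in both clones, with 58.7 to 64.52 CPM in parental, 43.4 to 56.1 in clone 15 and 52.9 to 57.3 in clone 37, -0.34 (adjusted p = 0.00522, SE 0.0965) in clone 15 and -0.22 (adjusted p = 0.0109, SE 0.0686) in clone 37. Neither call held against its neighbours (-0.21 and -0.12), nor that in clone 37 without clone 37 replicate 2 (-0.20). The SGO1 value in clone 15 was -0.21 without clone 15 replicate 2 and -0.63 with unstranded counts, and called in both, and that in clone 37 was -0.33 with unstranded counts.

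**Figure D2:**
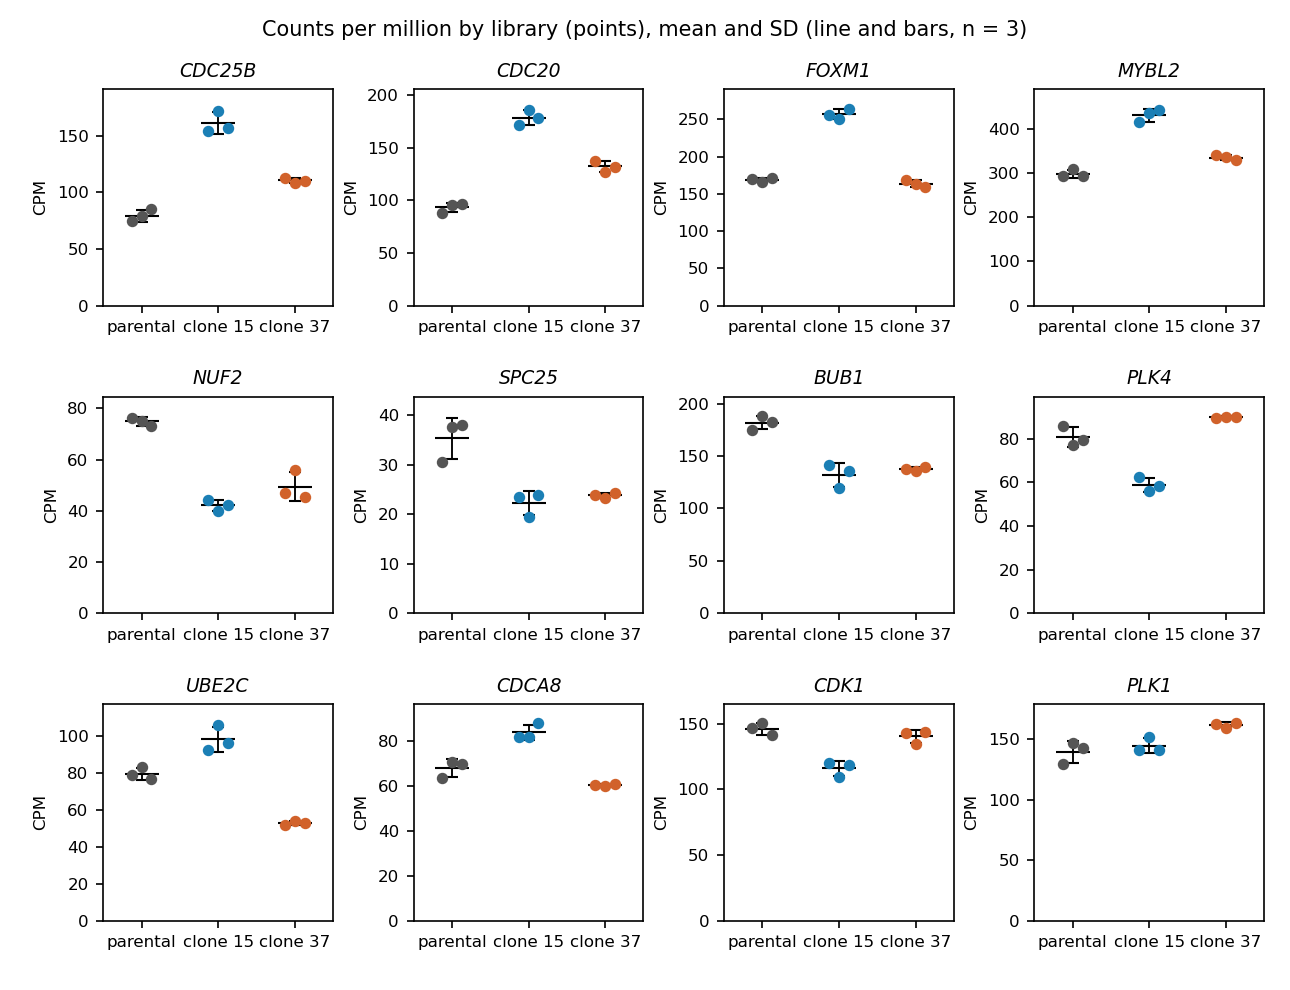
CPM (vertical axes, from 0) of 12 mitosis and spindle genes in each library of parental, clone 15 and clone 37 (points), with the mean and SD of 3 libraries. CDC25B and CDC20 order the groups as parental, clone 37, clone 15, while UBE2C and CDCA8 lie above parental in clone 15 and below it in clone 37.

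All 6 centromere and kinetochore genes had lower fitted levels than parental in both clones, and none was called higher. Against chromosome neighbours CENPA was at 0.13 in clone 37 and 0.13 in clone 15, and with the GC and length trends removed CENPF was at 0.067 in clone 37, none of them called. In clone 37, 3 of the 6 were called lower, where 27.3% of all genes were, and in clone 15, 4 of 6, where 26.2% were. NUF2, a coiled-coil subunit of the NDC80 complex that grips microtubules (chromosome 1, 163266576 to 163355764, plus strand), had 76.4, 75.1 and 73.2 CPM in the parental libraries, 44.3, 39.8 and 42.3 in clone 15 and 47.1, 55.8 and 45.5 in clone 37. No library of either clone reached the parental range. It fell by 0.86 (adjusted p = 7.09e-09, SE 0.0849) on the log2 scale in clone 15, a ratio of 0.551 to parental, and fell by 0.63 (adjusted p = 1.42e-06, SE 0.0734) in clone 37, a ratio of 0.647. Both calls held in all alternatives, with -0.35 in clone 37 against its neighbours. The clones differed by 0.23 (adjusted p = 0.0129, SE 0.0778), a call lost with the GC and length trends removed (0.087) and without clone 37 replicate 2 (0.15), the library highest in that group. Against its neighbours this difference was 0.36, and called. SPC25, a second subunit of that complex (chromosome 2, 168834132 to 168913371, minus strand), had 30.6, 37.6 and 38.0 CPM in the parental libraries, 23.4, 19.4 and 24.0 in clone 15 and 23.8, 23.3 and 24.4 in clone 37. Parental replicate 1 was the lowest parental library and still above all libraries of the clones. Its changes were -0.70 (adjusted p = 8.38e-06, SE 0.110) in clone 15 and -0.60 (adjusted p = 3.10e-05, SE 0.0925) in clone 37. Its chromosome neighbours had medians of -0.64 and -0.42, and against them SPC25 was not called (-0.064 and -0.18). NDC80, the subunit that names the complex and binds the microtubule directly, had 48.1 to 51.1 CPM in parental, 42.3 to 45.9 in clone 15 and 44.3 to 48.6 in clone 37, and was not called at -0.19 (adjusted p = 0.0701, SE 0.0874) in clone 15 and -0.15 (adjusted p = 0.0896, SE 0.0707) in clone 37. CENPE, the kinetochore kinesin, was called lower in clone 15 (-0.40, adjusted p = 0.00175, SE 0.0981) and in clone 37 (-0.21, adjusted p = 0.0156, SE 0.0672), from 245, 257 and 270.4 CPM in the parental libraries, 218, 165 and 215 in clone 15 and 208, 228 and 247 in clone 37. Clone 15 replicate 2 was the lowest library, and clone 37 replicate 3 overlapped parental. With the GC and length trends removed neither CENPE call held (-0.024 and -0.074), without clone 15 replicate 2 the first was -0.25, and the second was also lost in one fit of all 9 libraries (-0.21) and without clone 37 replicate 1 (-0.14) or 2 (-0.20). CENPF, a large protein of the outer kinetochore, was called in clone 15 at -0.24 (adjusted p = 0.0497, SE 0.100), and lost that call in 11 of 17 alternatives, including without parental replicate 2 or 3 and without clone 15 replicate 1 or 2 (range -0.29 to -0.025). CENPA, the histone variant that marks centromeres, had 22.3 to 24.3 CPM in parental, 19.95 to 21.3 in clone 15 and 19.4 to 21.6 in clone 37 and was not called in either clone.

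The chromosomal passenger complex brings AURKB to centromeres and then to the midzone, and it has 3 other genes here. Calls were 0 higher with 1 lower in clone 37 and 2 higher with 0 lower in clone 15. CDCA8, the subunit borealin (chromosome 1, 37692418 to 37709719, plus strand), had 63.5, 70.8 and 70.0 CPM in the parental libraries, 82.0, 81.8 and 88.0 in clone 15 and 60.4, 60.1 and 61.0 in clone 37. As with UBE2C, clone 15 lay above and clone 37 below every parental library. It was higher in clone 15 by 0.27 (adjusted p = 0.00901, SE 0.0834) and fell in clone 37 by 0.20 (adjusted p = 0.0174, SE 0.0661) on the log2 scale, and the clones differed by -0.47 (adjusted p = 3.08e-07, SE 0.0625). The difference between the clones held in all alternatives. The rise in clone 15 was lost with unstranded counts (0.21), the GC and length trends removed (0.18), its neighbours (0.12) and without parental replicate 1 (0.19), and the fall in clone 37 without clone 37 replicate 1 (-0.20) or 2 (-0.18). INCENP, the scaffold of the complex, had 157 to 168 CPM in parental, 180.5 to 194 in clone 15 and 154 to 163 in clone 37. It was called in clone 15 at 0.19 (adjusted p = 0.0418, SE 0.0772) and turned to -0.29 (adjusted p = 0.00330) against its neighbours, whose median was 0.48. That call was lost or turned in 8 of 17 alternatives. Among them were unstranded counts, the GC and length trends removed, and fits without parental replicate 1 (0.14) or 3 (0.19) or without clone 15 replicate 3 (0.20). BIRC5, survivin, had 124 to 145 CPM in parental, 149 to 151 in clone 15 and 146 to 149.9 in clone 37 and was not called in any comparison (0.13, adjusted p = 0.191, SE 0.0835, in clone 15 and 0.12, adjusted p = 0.126, SE 0.0650, in clone 37).

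The 8 mitotic kinesins, motors that slide or shorten spindle microtubules, split by gene. Calls were 2 higher with 3 lower in clone 37 and 2 higher with 5 lower in clone 15. KIF20A, the motor that carries the passenger complex to the midzone, had 90.6, 94.7 and 90.5 CPM in the parental libraries, 148, 137 and 149 in clone 15 and 109.9, 112 and 109.9 in clone 37. The groups did not overlap, and clone 15 was highest. KIF20A rose by 0.62 (adjusted p = 4.78e-07, SE 0.0803) on the log2 scale in clone 15 and by 0.24 (adjusted p = 0.00152, SE 0.0564) in clone 37, and was lower in clone 37 than in clone 15, at -0.38 (adjusted p = 2.03e-06, SE 0.0577). Against its neighbours the clone 37 change was 0.032 and not called, and that in clone 15 0.39. Its paralog KIF20B had 139 to 156 CPM in parental, 111 to 139 in clone 15 and 148 to 164 in clone 37, was called lower in clone 15 at -0.23 (adjusted p = 0.0382, SE 0.0918) with groups that overlapped, and was not called in clone 37 at 0.064 (adjusted p = 0.413, SE 0.0630). The KIF20B call in clone 15 was lost in 8 of 17 alternatives, among them without parental replicate 2 or clone 15 replicate 2 (range -0.30 to 0.17), and the clones differed by 0.29 (adjusted p = 0.00621, SE 0.0817), or 0.020 and not called with the trends removed, and 0.17 without clone 15 replicate 2. KIF23, the motor of the centralspindlin complex, had 126, 126 and 135 CPM in the parental libraries, 152, 133 and 158 in clone 15 and 166, 162 and 165 in clone 37, with clone 37 above all other libraries. It rose in clone 37 by 0.32 (adjusted p = 9.32e-05, SE 0.0552), a call that held in every alternative (0.19 against its neighbours), and was not called in clone 15 at 0.16 (adjusted p = 0.100, SE 0.0827). KIF11, the plus-end motor that pushes spindle poles apart, had 215, 246 and 234 CPM in the parental libraries, 205, 173 and 204 in clone 15 and 199, 197 and 213 in clone 37, all parental libraries lying above all clone libraries. Its change was -0.29 (adjusted p = 0.00955, SE 0.0897) in clone 15 and -0.22 (adjusted p = 0.00890, SE 0.0649) in clone 37. KIF14 and KIF4A, motors of the midzone, were also called lower in both, KIF14 at -0.20 (adjusted p = 0.0445, SE 0.0818) and -0.19 (adjusted p = 0.0113, SE 0.0579), and KIF4A at -0.23 (adjusted p = 0.0281, SE 0.0853) and -0.16 (adjusted p = 0.0269, SE 0.0591), in clones 15 and 37. With the GC and length trends removed, none of the 6 calls of KIF11, KIF14 and KIF4A held. KIF11 also lost its call without clone 15 replicate 2 (-0.18) and without clone 37 replicate 1 (-0.20) or 2 (-0.19), KIF14 lost it in clone 15 in 12 of 17 alternatives, among them without parental replicate 2 or 3 or any 1 clone 15 library (range -0.25 to 0.094), and in clone 37 without clone 37 replicate 2 (-0.15). KIF4A lost it in 9 in clone 37, among them without any 1 clone 37 library (range -0.21 to -0.081), and in 6 in clone 15, among them without parental replicate 2 or clone 15 replicate 1 or 2 (range -0.31 to -0.13). KIF18A, which shortens kinetochore microtubules, was called lower in clone 15 at -0.24 (adjusted p = 0.0284, SE 0.0891) and KIF2C, a depolymerase of the same fibres, higher there at 0.21 (adjusted p = 0.0255, SE 0.0775). Neither was called in clone 37. KIF18A lost its call without parental replicate 2 and without clone 15 replicate 2 or 3 (range -0.29 to 0.022) and had 0.022 with the trends removed, and KIF2C lost its call in 7 alternatives, among them without parental replicate 1 or 3 or clone 15 replicate 3 (range -0.037 to 0.26).

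Of the 4 genes for proteins that bind the spindle or midzone, 1 was called in clone 37 and 0 in clone 15. In clone 15 edgeR gave 2 of the 4 (PRC1 and NUSAP1) an unadjusted p under 0.05, and DESeq2 called 0. PRC1 and NUSAP1 were each called higher there in 4 of 17 alternatives, among them without parental replicate 1 for PRC1 (0.52) and without clone 15 replicate 1 for NUSAP1 (0.88), and DLGAP5 in 2, with the trends removed (0.29) and without clone 15 replicate 2 (0.21). DLGAP5, which stabilises kinetochore fibres, had 126, 145 and 135 CPM in the parental libraries, 158, 126 and 156 in clone 15 and 107, 107 and 107 in clone 37. Clone 37 lay below all other libraries and the other groups overlapped. It fell in clone 37 by 0.37 (adjusted p = 8.90e-05, SE 0.0627) on the log2 scale, was not called in clone 15 at 0.085 (adjusted p = 0.476, SE 0.0947), and was lower in clone 37 than in clone 15, at -0.45 (adjusted p = 6.71e-05, SE 0.0773). Its neighbours in clone 37 had a median of -0.38, and against them its change was 0.013. The difference between the clones was -0.070 and not called against its neighbours. ASPM, the pole protein that focuses spindles, had 452 to 498 CPM in parental, 401 to 470.4 in clone 15 and 487 to 518 in clone 37 and was called in neither clone against parental, and was higher in clone 37 than in clone 15 by 0.20 (adjusted p = 0.00506, SE 0.0592), a call lost with the GC and length trends removed (0.046) and at 0.11 without clone 15 replicate 2. In clone 37 ASPM was called higher with the trends removed (0.23) and against its neighbours (0.32). PRC1, the bundler of midzone microtubules, had 3.96 to 7.13 CPM over the 9 libraries, and NUSAP1, a protein that binds spindle microtubules, had 0.719 to 2.19 CPM. In GENCODE 29, 57.6% of the exon bases of PRC1 and 62.2% of those of NUSAP1 also lie in another gene on the same strand, ENSG00000284946 and ENSG00000285920, and STAR counts a read pair that lies in more than 1 gene for none. The authors' annotation release is not known, so its overlaps may differ. The overlapping genes held 212 to 822 counts per library for PRC1 and 0 for NUSAP1. The levels of PRC1 and NUSAP1 may therefore be those of their unshared bases only and are uncertain. PRC1 had 0.39 (adjusted p = 0.0709, SE 0.175) in clone 37 and NUSAP1 0.68 (adjusted p = 0.0862, SE 0.326), and neither was called in any comparison.

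Both cytokinesis genes fell in both clones. ANLN, anillin, the scaffold of the contractile ring (chromosome 7, 36389806 to 36453791, plus strand), had 181, 183 and 185 CPM in the parental libraries, 139, 121 and 150.2 in clone 15 and 154, 156 and 165 in clone 37, all parental libraries lying above all clone libraries. It fell by 0.45 (adjusted p = 9.22e-05, SE 0.0854) on the log2 scale in clone 15 and fell by 0.23 (adjusted p = 0.00202, SE 0.0561) in clone 37. The median of its neighbours was -0.33 and -0.42. Against them ANLN was not called in clone 15 (-0.13) and was higher in clone 37 (0.19, adjusted p = 0.0111), and with the GC and length trends removed the clone 37 call was lost (-0.14) and the clone 15 value was -0.24. ECT2, the exchange factor that activates RhoA at the cell's equator (chromosome 3, 172750682 to 172821474, plus strand), had 157, 169 and 165 CPM in the parental libraries, 153, 136 and 142 in clone 15 and 129, 126 and 127 in clone 37. The groups did not overlap and clone 37 was lowest. It fell by 0.39 (adjusted p = 1.77e-05, SE 0.0566) in clone 37 and fell by 0.22 (adjusted p = 0.0256, SE 0.0813) in clone 15. The clone 37 call was lost against its neighbours (-0.13), and that in clone 15 with no filter on low counts (-0.23) and without clone 15 replicate 2 (-0.15) or 3 (-0.20), while with the trends removed it was 0.035.

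The transcripts of the 2 proteins of mitotic chromosomes moved in opposite directions in both clones. TOP2A, the topoisomerase that untangles sister DNA, had 927, 1007 and 921 CPM in the parental libraries, 754, 653 and 735 in clone 15 and 834, 814 and 862 in clone 37. The groups did not overlap, with clone 15 lowest. It fell by 0.45 (adjusted p = 4.80e-04, SE 0.0981) on the log2 scale in clone 15 and fell by 0.21 (adjusted p = 0.0184, SE 0.0716) in clone 37, and the clones differed by 0.23 (adjusted p = 0.00116, SE 0.0575). With the GC and length trends removed no TOP2A call held (-0.19, -0.10 and 0.080), against its neighbours the falls were larger (-0.75 and -0.36) and the difference between the clones 0.37, and that in clone 37 was lost without any 1 of the clone 37 libraries (range over all alternatives -0.36 to -0.10). Without clone 15 replicate 2 the clones differed by 0.14 in TOP2A. MKI67, the Ki-67 protein that coats mitotic chromosomes and is used to count dividing cells, had 635, 622 and 688 CPM in the parental libraries, 941, 763 and 1032 in clone 15 and 777, 808 and 795 in clone 37. Both clones lay above parental and overlapped each other. It rose by 0.47 (adjusted p = 5.86e-04, SE 0.104) in clone 15, a call that held in every alternative, and by 0.27 (adjusted p = 0.00232, SE 0.0656) in clone 37, where it lost its call against its neighbours (0.13) and without clone 37 replicate 3 (0.24) and had 0.43 with the GC and length trends removed.

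The transcripts of both transcription factors that drive these genes were higher in clone 15. FOXM1 (chromosome 12, 2857681 to 2877155, minus strand) had 169.9, 166 and 171 CPM in the parental libraries, 256, 251 and 264 in clone 15 and 169, 163 and 159 in clone 37. Clone 15 lay above all other libraries, and clone 37 overlapped parental. It rose by 0.57 (adjusted p = 1.09e-06, SE 0.0782) on the log2 scale in clone 15, 1.49-fold, had -0.071 (adjusted p = 0.281, SE 0.0541) in clone 37, and was lower in clone 37 than in clone 15, at -0.65 (adjusted p = 3.99e-11, SE 0.0537). MYBL2 (chromosome 20, 43667019 to 43716496, plus strand) had 293, 309.7 and 293 CPM in the parental libraries, 415, 436 and 444 in clone 15 and 341, 336 and 329 in clone 37, and its groups did not overlap. It rose by 0.50 (adjusted p = 2.37e-05, SE 0.0848) in clone 15, 1.41-fold, and was lower in clone 37 than in clone 15, at -0.36 (adjusted p = 7.44e-07, SE 0.0507). The called changes of FOXM1 and MYBL2 in clone 15 and between the clones held in all alternatives. Against their neighbours the rises in clone 15 were 0.32 for FOXM1 and 0.25 for MYBL2, and with the GC and length trends removed MYBL2 differed by -0.24 between the clones. In clone 37 against parental MYBL2 was just past the threshold, at 0.14 (adjusted p = 0.0498, SE 0.0585), and lost that call in 14 of 17 alternatives, including each library left out in turn except parental replicate 2 (range -0.054 to 0.17).

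**Figure D3:**
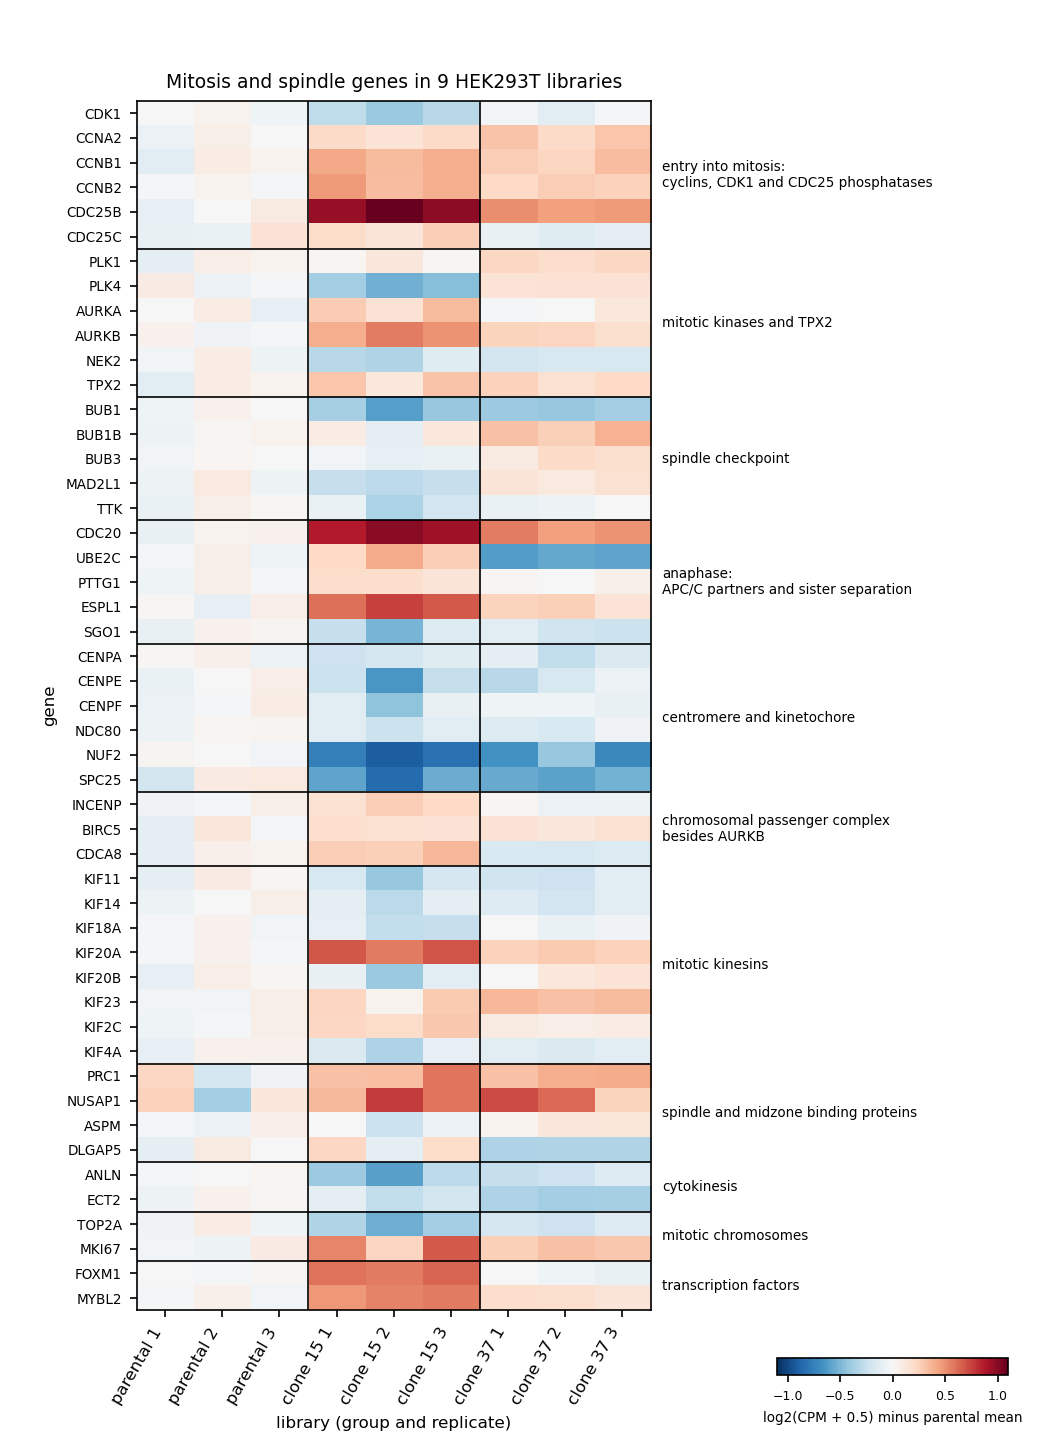
Level of each of the 49 mitosis and spindle genes (rows, grouped by role) in each of 9 libraries (columns) as log2(CPM + 0.5) minus the mean of the 3 parental libraries. In clone 15 CDC25B and CDC20 are the darkest rows above parental, NUF2 and SPC25 lie below it in both clones, and UBE2C changes colour between clone 15 and clone 37.

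Set against transcript length, the members spanned a wide range of levels. In TPM (counts per exon length, scaled to the same total in each library) TOP2A was highest in parental cells at 558 ± 25.9 (SD, n = 3), followed by MYBL2 at 406 ± 11.9, TPX2 at 280.2 ± 20.8 and CCNB1 at 240.4 ± 18.2. CCNB1 and UBE2C (234 ± 8.31) lay within 1 SD of each other. Besides PRC1 and NUSAP1, the lowest were CDC25C at 36.9 ± 4.01, KIF18A at 43.4 ± 1.16 and CENPA at 44.6 ± 1.57, of which the last 2 lay within 1 SD of each other. In clone 15 MYBL2 stood above TOP2A, at 554 ± 23.4 and 396 ± 28.2 TPM, while in clone 37 TOP2A stayed the higher, at 502 ± 12.2 against 466 ± 9.92.

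The direction of a member's change followed the base composition of its transcript in clone 15. Members called higher there had a median GC content of 50.9% and those called lower 39.1%. None of the 19 called lower exceeded 46.4%, and none of the 16 called higher was under 43.2%. Across the 49 genes, GC content and the log2 fold change in clone 15 had a Pearson r of 0.73 (Spearman rho 0.75), in clone 37 an r of 0.36 (rho 0.44), and between the clones an r of -0.68 (rho -0.69). These correlations are across genes that share the same libraries and are descriptions only. In clone 37 the members called higher had a median GC content of 48.3% and those called lower 40.03%. Over all genes, in clone 15 the genes called higher had a median GC content of 52.9% and those called lower 43.8%, and in clone 37 these were 49.02% and 47.1%. After the GC and length trends were removed from each library, r over the members was 0.46 for clone 15, 0.26 for clone 37 and -0.32 for the difference of the clones. Clone 15 replicate 2 was the lowest of its group for CENPE, CENPF and KIF20B, long members chosen here after their values were seen, at 165, 485 and 111 CPM, where replicates 1 and 3 had 218 and 215, 608 and 625, and 139 and 135. Read length also differs between clone 15 and the other groups, so its part in this relation cannot be told apart from that of the clone.

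**Figure D4:**
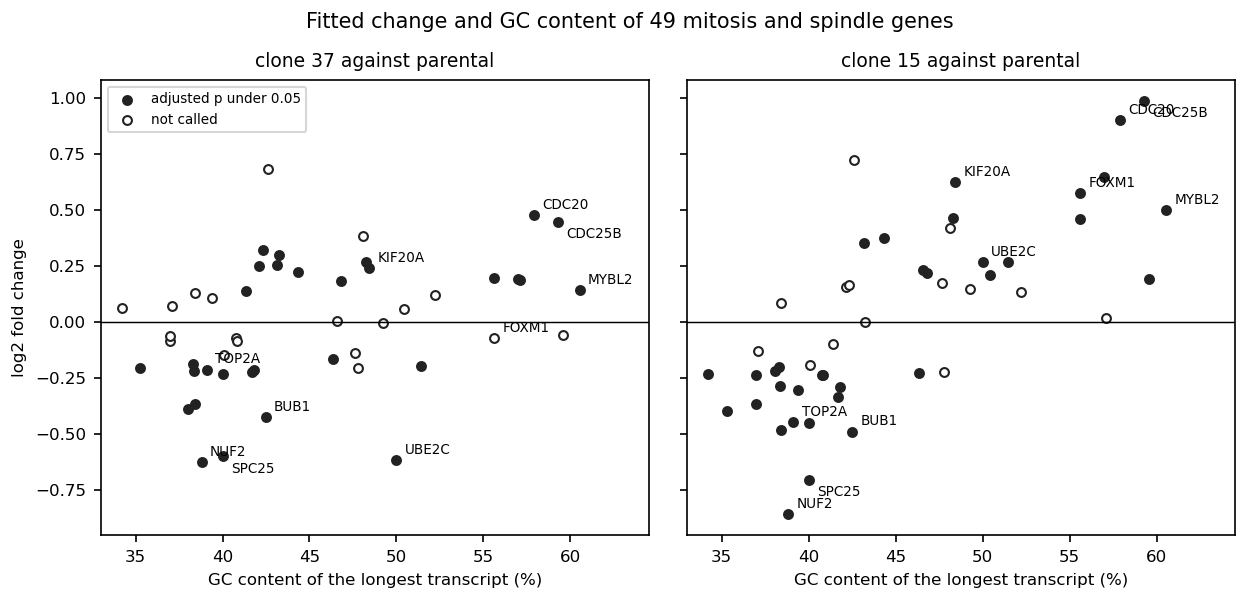
Log2 fold change against parental (vertical axes) and GC content of the longest transcript (horizontal axes, percent) for the 49 mitosis and spindle genes in clone 37 and clone 15. In clone 15 the points rise with GC content (Pearson r 0.73), from NUF2 and SPC25 to CDC20 and CDC25B, and less so in clone 37 (r 0.36).

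A member's change also went with that of the genes beside it. Over the 49 members, the median change of the 100 neighbours ran from -0.42 to 0.32 in clone 37 and from -0.64 to 0.48 in clone 15, and its Pearson r with the member's own change was 0.68 and 0.67, and 0.50 between the clones. These genes share libraries and neighbourhoods, so the values are descriptions. On chromosome 2, SPC25, BUB1 and CENPA had neighbours with medians of -0.64, -0.46 and -0.35 in clone 15 and -0.42, -0.30 and -0.33 in clone 37. On chromosome 20, CDC25B, TPX2, MYBL2, UBE2C and AURKA had 0.39, 0.41, 0.25, 0.23 and 0.19 in clone 15 and 0.25, 0.32, 0.20, 0.11 and 0.14 in clone 37. Of the members called, 11 of 30 in clone 37, 18 of 35 in clone 15 and 22 of 31 between the clones were called in the same direction against their neighbours. Neither these counts nor the correlations were computed over all genes tested, so they are not shown to be particular to the members.

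**Figure D5:**
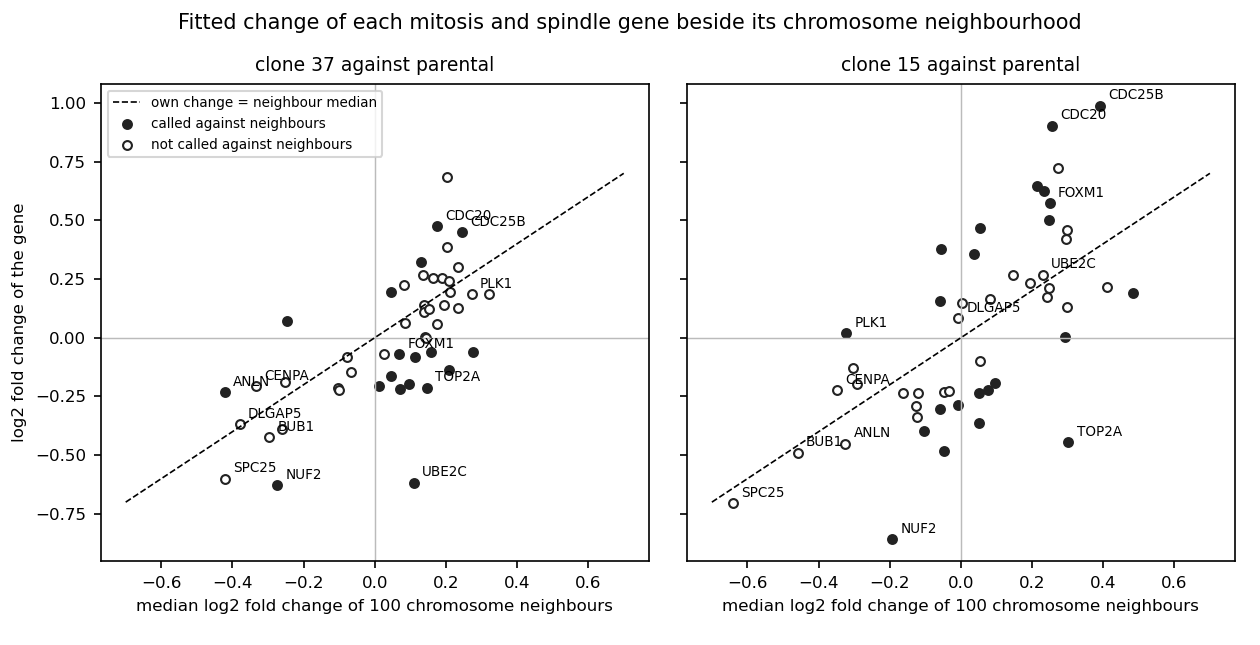
Log2 fold change of each of the 49 mitosis and spindle genes against parental (vertical axes) and the median of that value over its 100 nearest tested genes along the chromosome (horizontal axes). In clone 15 SPC25 (-0.064) and BUB1 (-0.031) lie close to the dashed line of equal change, while CDC20 (0.65), CDC25B (0.60), NUF2 (-0.66) and TOP2A (-0.75) lie farther from it.

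Of the 33 members with a CHR match, 8 rose with 12 falling in clone 37, 7 and 16 did so in clone 15, and 12 were higher with 9 lower between the clones. Of the 9 members with a window and no CHR match, 5 were higher and 2 lower in clone 37, 5 and 2 in clone 15, and 0 and 5 between the clones. Some of these 9, such as CCNB1 and AURKB, hold a CCAAT match. The median log2 fold changes in clone 15 were -0.20 for members with a CHR match and 0.21 for those without, and in clone 37 -0.083 and 0.14. Of all genes, 26.7% were higher and 27.3% lower in clone 37, 25.1% and 26.2% in clone 15, and 28.7% and 29% between the clones. Whether members with and without a CHR match differ was not tested.

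Each of 4 other lists of cell cycle genes held calls in both directions in each comparison. Of 104 other mitotic genes, all tested, 25 were higher and 40 lower in clone 37 (median 0.0077), 27 and 32 in clone 15 (median -0.013), and 34 and 38 in clone 37 against clone 15 (median -0.027). The share called was 62.5%, 56.7% and 69.2%, where that of all genes was 54%, 51.4% and 57.7%. BORA, the partner with which AURKA activates PLK1, had the largest decrease of that list in clone 37, with 18.2 ± 1.37 against 48.7 ± 2.77 CPM and -1.45 (adjusted p = 2.31e-10, SE 0.0837) on the log2 scale. NCAPH, a condensin subunit, followed at -1.03 (adjusted p = 2.06e-10, SE 0.0593). CENPN, which binds CENPA nucleosomes, rose by 0.85 (adjusted p = 6.04e-08, SE 0.0765) and ANAPC10, a subunit of the anaphase-promoting complex, by 0.76 (adjusted p = 8.80e-04, SE 0.166). In clone 15 HMMR, a spindle assembly protein, fell to 73.2 ± 11.4 against 136 ± 8.73 CPM, -0.93 (adjusted p = 9.76e-07, SE 0.106), and RAD21, the cohesin subunit cut by separase, had -0.88 (adjusted p = 6.13e-09, SE 0.0864). MAD1L1, the anchor of MAD2, was higher by 0.88 (adjusted p = 0.00152, SE 0.217) and CDCA3, a protein of mitotic entry, by 0.85 (adjusted p = 3.98e-08, SE 0.0930). Between the clones the largest called changes were BORA at -1.21 (adjusted p = 6.69e-13, SE 0.0824) and TACC3, a spindle protein, at -0.96 (adjusted p = 1.94e-14, SE 0.0555) among the decreases, and CENPN at 0.84 (adjusted p = 2.99e-10, SE 0.0762) and CENPH at 0.66 (adjusted p = 6.75e-10, SE 0.0629), both of the inner kinetochore, among the increases.

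Of 12 genes of the MuvB and DREAM complexes, 4 were higher and 4 lower in clone 37 (median -0.043), 1 and 7 in clone 15 (median -0.38), and 6 and 1 in clone 37 against clone 15 (median 0.17). The share called was 66.7%, 66.7% and 58.3%, where that of all genes was 54%, 51.4% and 57.7%. MYBL1, the A-MYB relative of MYBL2, had 15.9 ± 1.46 against 32.8 ± 2.34 CPM in clone 15 and parental, a log2 fold change of -1.06 (adjusted p = 7.07e-09, SE 0.105), and was higher in clone 37 than in clone 15 by 1.28 (adjusted p = 9.08e-13, SE 0.0885). E2F5, a repressor E2F, moved likewise, by -0.88 (adjusted p = 3.73e-08, SE 0.0959) and 1.099 (adjusted p = 1.58e-12, SE 0.0781). LIN37, a MuvB subunit, was the member of that list called higher in clone 15, at 0.57 (adjusted p = 0.0445, SE 0.236) with 3.56 ± 0.378 against 2.33 ± 0.587 CPM. In clone 37 against parental the largest called changes were TFDP2, the partner of E2F proteins, at -0.45 (adjusted p = 2.63e-06, SE 0.0561), and LIN52, a MuvB subunit, at -0.43 (adjusted p = 7.81e-04, SE 0.0930), and the increases RBL2 at 0.32 (adjusted p = 9.62e-05, SE 0.0547) and E2F4 at 0.29 (adjusted p = 0.00112, SE 0.0646). LIN52 also differed between the clones, by -0.45 (adjusted p = 1.41e-04, SE 0.0914). Of 37 genes of DNA replication and S phase, 10 were higher and 10 lower in clone 37 (median 0.0071), 6 and 15 in clone 15 (median -0.11), and 16 and 10 in clone 37 against clone 15 (median 0.085). The share called was 54.1%, 56.8% and 70.3%, where that of all genes was 54%, 51.4% and 57.7%. MCM5, a subunit of the replicative helicase, fell in clone 37 to 116 ± 3.45 against 222 ± 13.4 CPM (-0.96, adjusted p = 5.65e-10, SE 0.0597), as did LIG1, the ligase of Okazaki fragments (-0.92, adjusted p = 6.57e-09, SE 0.0689), while GINS2, another helicase component, and CCNE2, a cyclin of S-phase entry, rose by 0.48 (adjusted p = 6.44e-06, SE 0.0647) and 0.48 (adjusted p = 8.39e-05, SE 0.0817). In clone 15 CDT1, which loads the helicase, and MCM4 fell, with -0.85 (adjusted p = 4.68e-08, SE 0.0917) and -0.82 (adjusted p = 2.19e-08, SE 0.0867), and UHRF1, which binds hemimethylated DNA, and TK1, thymidine kinase, rose by 0.48 (adjusted p = 3.48e-05, SE 0.0844) and 0.41 (adjusted p = 3.35e-04, SE 0.0878). Between the clones TK1 and MCM5 were lower in clone 37 (-0.87, adjusted p = 7.35e-12, SE 0.0668, and -0.84, adjusted p = 4.25e-13, SE 0.0563), and CCNE2 and GINS2 higher (1.22, adjusted p = 5.44e-12, SE 0.0922, and 0.88, adjusted p = 1.61e-12, SE 0.0626).

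Of 16 G1 cyclins, CDKs and CDK inhibitors, 3 were higher and 8 lower in clone 37 (median -0.30), 5 and 8 in clone 15 (median -0.26), and 4 and 7 in clone 37 against clone 15 (median -0.13). The share called was 68.8%, 81.2% and 68.8%, where that of all genes was 54%, 51.4% and 57.7%. Their median size of change was 0.53 (clone 37), 0.43 (clone 15) and 0.29 (clone against clone), where the 104 other mitotic genes had 0.23, 0.25 and 0.29. The difference was not tested. CCND1, the G1 cyclin D1, went up in clone 37 and down in clone 15: its level was 106 ± 1.04 against 59.1 ± 3.01 CPM in clone 37 and parental (0.81, adjusted p = 7.61e-09, SE 0.0620) and 23.5 ± 2.65 against 59.1 ± 3.01 CPM in clone 15 and parental (-1.37, adjusted p = 2.04e-11, SE 0.0971). The difference between the clones was 2.18 (adjusted p = 4.69e-20, SE 0.0709). CDKN2B, the inhibitor p15 of CDK4 and CDK6, moved the other way, by -1.17 (adjusted p = 1.39e-07, SE 0.112) in clone 37, 0.72 (adjusted p = 1.78e-06, SE 0.102) in clone 15 and -1.89 (adjusted p = 7.08e-15, SE 0.104) between the clones. CCND2, cyclin D2, fell in clone 37 to 170.4 ± 7.10 against 379.8 ± 18.5 CPM (-1.18, adjusted p = 6.46e-11, SE 0.0623). In clone 15 GADD45A, a stress-induced inhibitor of CDK1, fell by 1.13 (adjusted p = 7.34e-08, SE 0.129) on the log2 scale and CCND3 rose by 0.48 (adjusted p = 1.87e-04, SE 0.0972). CDKN2A was lower in clone 37 than in clone 15, at -1.003 (adjusted p = 1.17e-07, SE 0.0890), and CDK6 higher by 0.53 (adjusted p = 2.32e-09, SE 0.0545).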

How the data were processed

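RNA depleted of ribosomal RNA was sequenced from strand-specific libraries, 3 each of parental HEK293T, clone 15 and clone 37. The authors deposited whole-number counts per gene and library, with unstranded and stranded columns; reads were checked with FastQC 0.11.9 and aligned with STAR 2.7.10a to hg38, per the submitters' processing notes. The annotation release is not given in the sources used here.

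Column 4, the strand that held most counts, was used as deposited, without its 4 summary entries. Each comparison was fitted on its 6 libraries with edgeR 4.0.16 (filterByExpr, TMM factors, robust quasi-likelihood test), with Benjamini-Hochberg adjustment over all genes tested and a threshold of 0.05. Positions, exon lengths and GC content came from GENCODE 29 on GRCh38, which held 58496 of the 60683 gene identifiers. The procedure was tested on simulated data, where the share of false calls lay above the nominal threshold in each comparison and most so in clone 37 against parental, so calls close to the threshold are weak. The SE is the log2 fold change divided by the square root of the F statistic. Alternatives were RLE size factors, DESeq2 1.42.0, no filter, 1 CPM in 3 libraries, unstranded counts, all 9 libraries, a replicate block, thinning, protein-coding genes only, removal of GC and length trends, each library left out and, chosen after the data were seen, testing against the 100 chromosome neighbours.

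Every member could be named. Full statistics were planned for the 4 largest called changes in each direction, members called in both clones and 7 regulators, and for the 2 largest in each direction of 4 other lists: other mitotic genes, MuvB and DREAM, S phase, and G1. Other members carry them where their call is described. One gene that this rule names is not reported here. The members and lists were chosen with earlier results of these data known. The planned comparison of paralog proteins was not run.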

Additional observations from a re-analysis of the deposited data

Results flagged for a closer look

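UBE2C and CDCA8 were called in opposite directions in the clones, higher than parental in clone 15 and lower in clone 37. They were picked for this and for being called between the clones by edgeR's quasi-likelihood test, so the values between the clones describe them and are no separate test. UBE2C, the ubiquitin-conjugating enzyme of the anaphase-promoting complex, differed by -0.89 (SE 0.0635, adjusted p = 1.90e-12) on the log2 scale, and all 3 libraries of clone 37 lay below all 3 of clone 15. CDCA8, borealin, differed by -0.47 (SE 0.0625, adjusted p = 3.08e-07), also with no overlap of the clones. Both differences between the clones, and the fall of UBE2C in clone 37, held in all 17 alternatives. The rise in clone 15 was lost in 5 of them for UBE2C and in 4 for CDCA8, and the fall of CDCA8 in clone 37 in 2. The read length also differs between the clones and cannot be told apart from them.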

How the results depend on the processing

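Of the calls against parental, 5 of 30 in clone 37 and 12 of 35 in clone 15 held in all 17 alternatives, and 13 of 31 between the clones. In clone 37 the members called higher numbered 9 without a filter on low counts and 8 from unstranded counts, those called lower 9 with the GC and length trends removed, and against chromosome neighbours 18 were called, 6 of them higher. In clone 15 unstranded counts gave 10 higher, the trend removal 9 lower, and the neighbours 23 called and 12 lower. Between the clones the trend removal gave 6 higher. Matching counts over all genes were not computed for these settings.

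With 1 library left out, clone 37 had 19 to 34 members called (8 to 17 higher, 8 to 17 lower), clone 15 had 27 to 32 (11 to 19 higher, 11 to 19 lower) and the clones differed in 23 to 31 (9 to 14 higher, 13 to 20 lower). The counts moved most in clone 37 without parental replicate 3 (9 higher), clone 37 replicate 1 (19 called, 9 lower), replicate 2 (8 lower) or replicate 3 (8 higher), in clone 15 without clone 15 replicate 2 (11 lower), and between the clones without clone 37 replicate 3 (9 higher).

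Among values called in the planned fit or under the alternative, directions turned against chromosome neighbours for PLK1 (-0.087), AURKB (-0.018), TPX2 (-0.14), BUB3 (-0.00098), KIF14 (0.064), DLGAP5 (0.013), ANLN (0.19) and MYBL2 (-0.054) in clone 37, for TPX2 (-0.19), BUB1B (-0.29), INCENP (-0.29), KIF14 (0.092) and KIF2C (-0.037) in clone 15, and for PLK1 (-0.42) and ECT2 (0.17) between the clones. With the trends removed they turned for KIF14 (0.094), KIF18A (0.022), KIF20B (0.17) and ECT2 (0.035) in clone 15 and for PTTG1 (0.010), KIF14 (-0.16) and KIF18A (-0.019) between the clones. The causes were not tested.

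The replicate numbers do not pair the samples: deviations of same-numbered libraries correlated at -0.162 to 0.023. With the replicate block, 25 members were called in clone 37 (12 higher, 13 lower), 30 in clone 15 (14 and 16) and 33 between the clones (15 and 18).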
